A study of Homo sapiens with 4 samples.

Results

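The T-cell receptor proximal signalling genes are 9 genes whose proteins carry the signal from the engaged receptor to its first branches: PTPRC, LCK, FYN, ZAP70, LAT, LCP2, PLCG1, VAV1 and PRKCQ. Binding of IGF2BP2 to their RNA was read from iRIP-seq of Jurkat cells, a human T-cell acute lymphoblastic leukaemia line; the labels give no genetic change and no treatment, and all libraries come from this line. In iRIP-seq, cells are crosslinked with UV light, the protein is immunoprecipitated, and the RNA held by it is sequenced. There were 2 libraries of RNA precipitated with an antibody against IGF2BP2 (replicates 1 and 2) and 2 input libraries, whose peaks were not used here. The labels do not say whether the replicates were separate cultures, so their spread may be technical. A peak was assigned to a member when the deposited list named the member's Ensembl gene and the peak lay mainly in its coding sequence (CDS), an untranslated region (UTR), a noncoding exon or an intron on the sense strand. By this rule 161 of 74237 sense peaks in replicate 1 and 208 of 77288 in replicate 2 belonged to the members. These peaks fell on 8 of the 9 genes, and LAT had none under its own identifier. The genes were grouped by their function, but they were chosen with earlier results of these data known.

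When the T-cell receptor is engaged, the kinase LCK, kept active by the phosphatase CD45 (the product of PTPRC), phosphorylates the signalling tails of the receptor's CD3 and zeta chains, and FYN can share in this. ZAP70 docks on these tails and phosphorylates the membrane adaptor LAT and the cytosolic adaptor SLP-76 (the product of LCP2). The adaptors gather PLCG1, which makes the second messengers of calcium and diacylglycerol signalling, and VAV1, which activates small GTPases of the cytoskeleton, while the diacylglycerol opens the way to NF-kB through PRKCQ. IGF2BP2 is a cytoplasmic RNA-binding protein known as a reader of methylated adenosine that stabilises bound mRNAs.

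A peak's height is its number of sequence tags as deposited, with no adjustment for depth, and the lists start at 4 tags in replicate 1 and at 5 in replicate 2. The read depth of the libraries is unknown here, so heights of the 2 libraries are set side by side and not compared by a test. With 1 condition and 2 lists no test was run, and intervals given with shares are 95% Wilson intervals, which cover counting error only. The RNA levels of the genes were not analysed here; a gene with more RNA offers more tags, and the part of RNA level in the counts was not tested. Of 8 T-cell marker genes, 6 had a sense peak in both replicates, against 2 of 7 B-cell genes and 2 of 8 myeloid genes, beside 47.6% of all protein-coding genes counted by position. The 5 T-cell genes with peaks that overlapped between the replicates were CD3D, CD3E, CD247, CD5 and CD7, and no B-cell or myeloid gene of the lists had such a pair, beside 16.0% of all genes. Positions are those of GRCh38, counted from 1, so that each start is 1 higher than in the lists. In both lists 100% of the listed starts were multiples of 50 nt, so peaks follow a fixed grid and not the ends of tags. A peak whose interval holds the edge of an exon counts as exon and intron wherever its tags lie.

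Sequence of the reference (RefSeq, GRCh38.p14) was at hand only for windows around annotated transcript starts, and these windows met a few of the members' peaks. Shown first are the sense strands of 2 neighbouring ZAP70 peaks of replicate 1. They show how the listed interval of a peak, placed by the grid, can hold the edge of an exon. The capitals mark the bases counted as CDS by the region shares, placed after the intron part.
ZAP70 peak at chr2:97733101-97733200 (+): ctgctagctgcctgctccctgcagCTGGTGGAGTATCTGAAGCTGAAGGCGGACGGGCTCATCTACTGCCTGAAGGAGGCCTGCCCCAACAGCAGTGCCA
ZAP70 peak, without its last base, chr2:97733251-97733349 (+): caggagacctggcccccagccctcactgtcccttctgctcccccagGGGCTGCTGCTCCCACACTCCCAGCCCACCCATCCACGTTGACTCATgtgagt
In the first, 24 of 100 bases were intron and 76 were CDS, and the intron part ended in the bases ag that close an intron. In the second, 46 bases were intron, again ending in ag, and 47 were CDS. The other 7% of this peak was listed as noncoding exon, and the bases after the capitals fall to that share. The first peak had 17.5 tags and the second 16 tags, and replicate 2 listed no peak over either of them.

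Shorter stretches come from the 5′ ends of members.
ZAP70 5′ UTR at chr2:97713601-97713625 (+): agctcagcagacaccaggccttccg
PLCG1 start codon in capitals, chr20:41137621-41137650 (+): gccgcccccagcgtcggagccATGgcgggc
LAT at chr16:28985071-28985100 (+): gggcgggagggcgggcacggagaggcgggc
The ZAP70 stretch lay under a peak of 7 tags in each replicate. The PLCG1 stretch closed a replicate 2 peak of 8 tags that reached from the 5′ UTR into the first codons, and the LAT stretch closed a replicate 2 peak of 6 tags that the list put under another gene. The letters GGAC, the core of sequences known for IGF2BP proteins, were searched on both strands. They occurred in 1 of these 5 sequences on the sense strand, the first ZAP70 peak, from base 51, and the second ZAP70 peak held them on the other strand, as GTCC. Of 43 sense peaks of 100 nt lying wholly inside a window, 34.9% held GGAC on their own strand, and of all stretches of that length in the windows 31.3% did on the given strand and 52.6% on either strand.

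A sense peak in both replicates was listed for 8 of 9 members, where 47.6% of 19629 protein-coding genes had one by position. For replicate 1 alone the count was 8 of 9 beside 59.5% of all genes, and for replicate 2 alone 8 of 9 beside 57.8%. Peaks that overlapped between the replicates were found on 8 members, beside 16.0% of all genes. A mainly exonic peak in both replicates was found on 8 members, beside 23.2% of all genes, and peaks reaching 10 tags in each replicate on 6 members, beside 4.01% of all genes. The 6 were PTPRC, LCK, ZAP70, LCP2, PLCG1 and VAV1. The genes are counted by position on their strand in the background and by identifier here, and by position LAT joins each of these counts except that of exonic peaks.

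**Figure D1:**
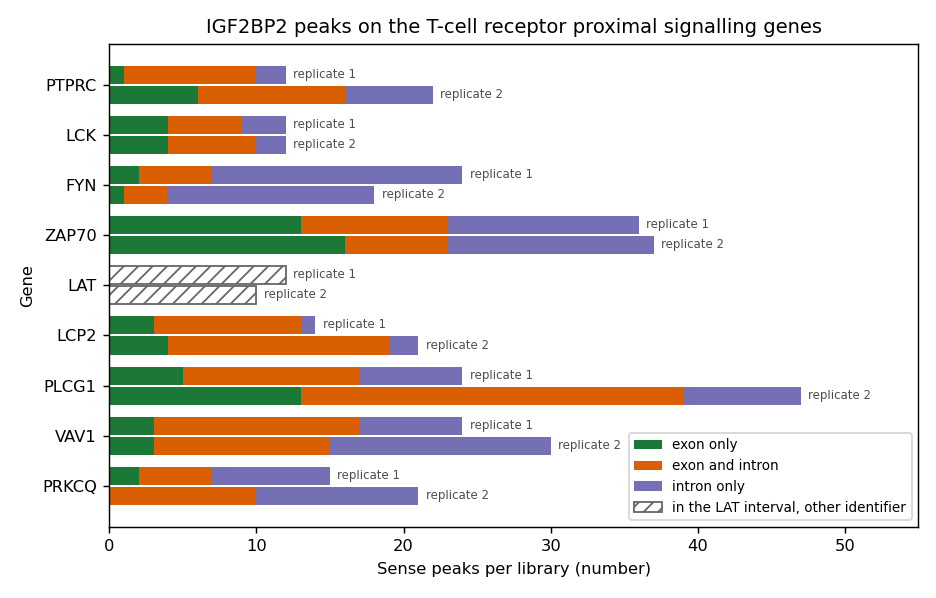
Number of sense peaks on each gene (x axis) in replicate 1 (upper bar) and replicate 2 (lower bar), split into peaks lying in exons only, across exon and intron, and in introns only. ZAP70 had 36 and 37 peaks and PLCG1 24 and 47; the hatched bars are the 12 and 10 peaks inside the LAT interval that were listed under another identifier.

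PTPRC, which encodes the receptor phosphatase CD45, had 12 peaks in replicate 1 and 22 in replicate 2, with heights of 4 to 10 and 5 to 14 tags. Its peaks lay toward the 3′ side, 8 of 12 and 19 of 22 in the second part of the gene when the gene is divided at its middle. The highest pair, at chr1:198703251-198703300, had 9 tags in replicate 1 and 13 in replicate 2, and 94% of its length was intron beside 6% CDS. The highest peak of replicate 1, at chr1:198699551-198699600 with 10 tags, had a counterpart of 7 tags, and the highest of replicate 2, at chr1:198734301-198734350 with 14 tags, had none.

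LCK, the kinase that starts the cascade, had 12 peaks in each replicate, and 10 and 11 of them lay beyond the middle of the annotated gene. Its heights ranged from 4 to 16 tags in replicate 1 and from 5 to 24 in replicate 2, and the medians were 6 and 9.5 tags. The highest pair joined a replicate 1 peak of 9 tags at chr1:32274701-32274850, of which 76% was CDS, with a replicate 2 peak of 24 tags at chr1:32274701-32274750. The highest replicate 1 peak, 16 tags at chr1:32276601-32276650, had no counterpart. The LCK peaks that reached 10 tags, 1 peak of replicate 1 and 6 of replicate 2, all held some CDS. Of these tall peaks, 0 of 1 and 3 of 6 met a peak of the other list. Among all LCK peaks, 3 of 12 in replicate 1 and 4 of 12 in replicate 2 did.

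FYN, the second Src-family kinase of the set, had 24 and 18 peaks spread over 213121 nt, and 17 and 14 of them lay wholly in introns. The median heights of 4 and 5 tags were the lowest heights the lists hold, and 3 pairs overlapped. Both UTR pairs lay at 5′ UTR exons: chr6:111872951-111873000 had 9 and 6 tags, and chr6:111780551-111780600 had 6 and 5 tags. The third pair, at chr6:111777451-111777500, was intronic with 4 and 6 tags. The highest peak of replicate 2, 13 tags at chr6:111719801-111719900 and 96% CDS, had no counterpart. FYN was thus the member with the most intron peaks in replicate 1, and its pairs included no peak that was mainly CDS.

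ZAP70, the kinase that docks on the phosphorylated receptor, had 36 peaks in replicate 1 and 37 in replicate 2, and 17 of each overlapped the other list. Its tallest peak was at the same place in both, chr2:97725051-97725100, with 19 tags in replicate 1 and 30 in replicate 2; 82% of it was intron and 18% CDS. This was the highest pair on any of the 9 genes by the lower of its heights. At the 5′ end, a UTR pair at chr2:97713901-97714000 had 9.5 and 11.5 tags, and a pair at chr2:97724001-97724100, mainly CDS, had 13 and 11.5 tags. The libraries parted at the place of the sequences above: replicate 1 listed 5 peaks in a row between chr2:97732601 and 97733350, of 5 to 17.5 tags, and replicate 2 listed none in that stretch of 750 nt. Of the 10 ZAP70 peaks of at least 10 tags in replicate 1, 7 had no counterpart, against 1 of 9 in replicate 2.

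LAT, the membrane adaptor, had no sense peak and no antisense peak under its own Ensembl identifier in either list. Inside the RefSeq interval of LAT and on its strand, however, replicate 1 listed 12 peaks and replicate 2 listed 10, all under the identifier ENSG00000288630.1 and all as intron. That identifier had 82 peaks in each list, each of them called intron, and they spanned chr16:28469901-29257700 in replicate 1 and chr16:28417951-29360050 in replicate 2. ATXN2L, a neighbour that regulates stress granules, held 33 and 27 of them. The region names of these peaks therefore describe that long gene model and not the exons of LAT. The heights inside LAT ranged from 4 to 10 tags in replicate 1 and from 5 to 14.5 in replicate 2, with medians of 6.25 and 7 tags. The 5 overlapping pairs stood side by side between 1347 and 1972 nt from the gene's start. Their heights in replicate 1 and replicate 2 were 6.5 and 14.5, 10 and 12, 7 and 7, 5 and 10, and 4 and 7 tags. Peaks of both libraries also lay outside this cluster without overlapping.

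LCP2, the cytosolic adaptor SLP-76, had 14 and 21 peaks, and 11 of each overlapped, the largest share of any member's replicate 1 peaks, at 78.6%. Nearly all were on coding exons or their edges: 10 and 15 peaks crossed an exon edge, 3 and 4 were exonic, and 1 and 2 were intronic. The highest pair, at chr5:170270701-170270750, had 8 tags in replicate 1 and 13 in replicate 2 and was 64% CDS. The highest peak of replicate 1, 13 tags at chr5:170268351-170268400, had a counterpart of 7 tags. Its pairs were thus of moderate height, and none had at least 10 tags in both libraries.

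PLCG1, the phospholipase, had 24 peaks in replicate 1 and 47 in replicate 2, and 14 of each overlapped. Its heights ran from 4 to 14 tags with a median of 5 in replicate 1, and from 5 to 23 with a median of 8 in replicate 2. The highest pair, at chr20:41172701-41172750, had 14 and 16 tags, with 44% CDS and 56% intron, and a pair at the 5′ UTR began at chr20:41137501 in both lists with 6 and 8 tags. Replicate 2 alone listed 10 peaks in a row between chr20:41163801 and 41165800, of 5 to 23 tags, where replicate 1 listed 1 peak of 4 tags. Of its 20 peaks of at least 10 tags in replicate 2, 13 had no counterpart. PLCG1 thus differed between the libraries in the same way as the ZAP70 stretch, but in the opposite direction. In replicate 1, 2 intron peaks of 4 tags under its identifier lay beyond the end of the RefSeq gene, and in replicate 2, 1 peak of 5 tags lay before its start.

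**Figure D2:**
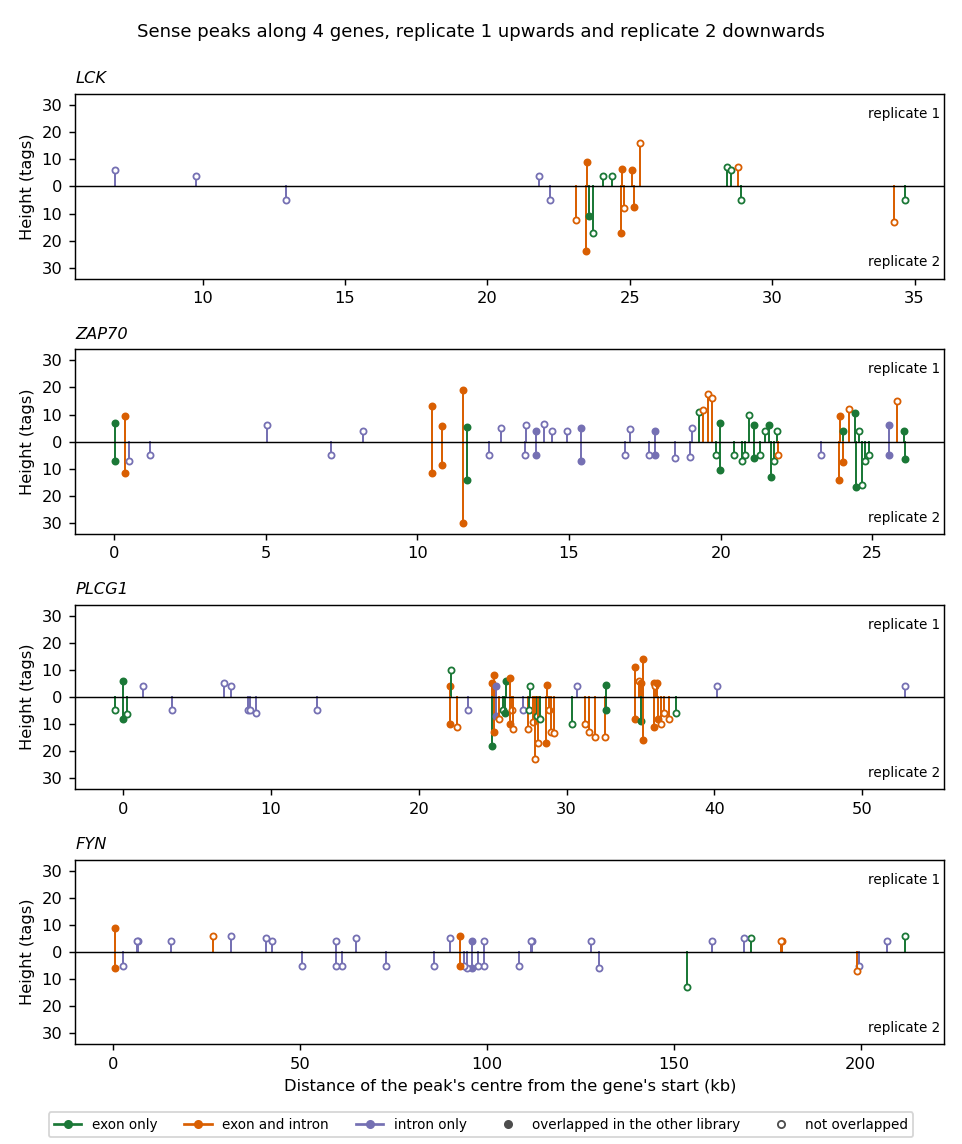
Sense peaks along LCK, ZAP70, PLCG1 and FYN: distance of the peak's centre from the gene's start (x axis, kb) and height in tags (y axis), replicate 1 upwards and replicate 2 downwards. Colours give the kind of region and filled points are peaks overlapped in the other library; the tall ZAP70 pair has 19 and 30 tags, while FYN holds mostly open intron points.

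VAV1, the exchange factor for cytoskeletal GTPases, had 24 and 30 peaks, and 9 of each overlapped. The heights were 4 to 11 and 5 to 10 tags, and the highest pair, at chr19:6852951-6853000 with 72% CDS, had 7 and 8 tags. In replicate 1, 14 peaks crossed an exon edge and 7 were intronic, and in replicate 2 these counts were 12 and 15. Replicate 2 listed 13 intron peaks in a row between chr19:6776251 and 6817900, of 5 to 8 tags, none with an overlapping peak.

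PRKCQ, the kinase that links diacylglycerol to NF-kB, had 15 peaks in replicate 1, none above 5 tags, and 21 in replicate 2, of 5 to 12 tags. The 3 pairs were weak in replicate 1, at 4 tags each. The highest, at chr10:6441851-6441900, had 4 and 9 tags and was 84% intron and 16% CDS. The highest peak of replicate 2, 12 tags at chr10:6498351-6498400, crossed an exon edge and had no counterpart. Like FYN, PRKCQ had no peak reaching 10 tags in replicate 1.

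Many of the members' peaks held the edge of an exon in their listed intervals in both libraries. These intervals follow the grid of 50 nt, and the part of the grid in the shares below was not tested. Of all member peaks, 43.5% in replicate 1 (interval 36.1 to 51.2) and 42.8% in replicate 2 (36.3 to 49.6) held both exon and intron, beside 17.1% and 23.0% of all sense peaks. Peaks lying only in introns made up 36.0% (29.0 to 43.7) and 34.6% (28.5 to 41.3) of the members' peaks, beside 62.8% and 53.9% of all sense peaks. By the region with the largest share, 49.1% (41.5 to 56.7) and 50.5% (43.7 to 57.2) of member peaks were mainly exonic, beside 30.8% and 37.6% of all sense peaks. CDS made up most of this, 62 and 84 peaks, while 9 and 11 peaks were mainly noncoding exon, 6 and 6 mainly 5′ UTR and 2 and 4 mainly 3′ UTR. The members differed among themselves: the peaks lying only in introns ranged from 1 of 14 on LCP2 to 17 of 24 on FYN in replicate 1, and from 2 of 21 on LCP2 to 14 of 18 on FYN in replicate 2.

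The kinds of peak also differed in height. No peak under a member's own identifier that lay only in an intron, of 58 and 72, reached 10 tags. The highest had 6.5 tags in replicate 1 and 8 in replicate 2. At exon edges, 13 of 70 and 36 of 89 member peaks reached 10 tags. Over all sense peaks, 0.227% and 0.921% of those only in introns did, so tall intron peaks were rare there too. Of all sense peaks at exon edges, 9.87% and 24.5% did. Inside LAT, 1 peak of replicate 1 and 4 of replicate 2 that the lists call intron of the other identifier reached 10 tags. A main region of intron therefore did not mean a peak away from exons: all 5 of the tall member peaks called mainly intronic in replicate 1, and all 16 in replicate 2, held some CDS. Among all sense peaks of at least 10 tags called mainly intronic, 72.4% and 73.1% held some CDS. Peaks of at least 10 tags were 10.6% (6.70 to 16.3) of member peaks in replicate 1 and 23.1% (17.9 to 29.3) in replicate 2, beside 2.73% and 8.75% of all sense peaks.

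Replicate 2 overlapped 41.0% (33.7 to 48.7) of the member peaks of replicate 1, and replicate 1 overlapped 32.2% (26.2 to 38.8) of those of replicate 2, beside 16.6% and 15.8% of all sense peaks. By kind, 44 of 70 peaks at exon edges (62.9%), 15 of 33 exonic (45.5%) and 7 of 58 intronic peaks (12.1%) of replicate 1 were overlapped. Over all sense peaks of replicate 1 these shares were 52.0%, 29.5% and 2.91%, so peaks at exon edges were overlapped most there too. The part of the mix of kinds in the 41.0% beside 16.6% was not tested. Tall and low member peaks of replicate 1 had like shares with a counterpart, unlike those of the whole list. Of member peaks of at least 10 tags, 7 of 17 had a counterpart of any height (41.2%, 21.6 to 64.0) against 41.0% of lower ones (33.3 to 49.1), where over all sense peaks these shares were 73.5% and 15.1%. In replicate 2, 23 of 48 tall member peaks had a counterpart (47.9%, 34.5 to 61.7) against 27.5% of lower ones (21.2 to 34.9), where over all sense peaks these shares were 62.4% and 11.4%. ZAP70 held 7 of the 10 tall replicate 1 peaks without a counterpart, and PLCG1 held 13 of the 25 in replicate 2. Peaks of 1 gene are not independent, and the authors removed peaks that met input peaks, which were not analysed here; the part of that step in these gaps was not tested.

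Over the 66 overlapping pairs of the members, the replicate 2 height was the larger in 49, equal in 5 and smaller in 12, with a median ratio of 1.39. Over all 12357 pairs of sense peaks the median ratio was 1.40. Replicate 2 was the higher in 74.2% of the members' pairs and in 77.9% of all pairs. In median ratio the members' pairs were therefore near those of the whole lists, and a single height minimum was easier to pass in replicate 2. The lists start at 4 tags in replicate 1 and at 5 in replicate 2, and the part of this in the ratios was not tested. At least 10 tags in both libraries were reached by 4 of the 66 member pairs, beside 1123 of all 12357 pairs. Of the 4, 3 were on ZAP70 and 1 on PLCG1.

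Since long genes can hold more peaks, each member was set beside genes of like length, in 10 groups of protein-coding genes ordered by length. By position, ZAP70 had more peaks than 99.5% of the 1963 genes of its group in replicate 1 and 99.3% in replicate 2, where the median gene had 1 peak. PLCG1 exceeded 98.7% and 99.5%, and LAT, with 12 and 10 peaks on 5982 nt, exceeded 99.6% and 98.6% of its group. LCP2 exceeded 96.3% and 97.0%, VAV1 96.6% and 96.8%, LCK 94.95% and 93.0%, and PTPRC 90.0% and 94.9%. FYN exceeded 91.9% and 88.7%, and PRKCQ 82.6% and 90.6%. Per 10 kb of gene, LAT had 20.1 and 16.7 peaks, ZAP70 8.41 and 8.65, PLCG1 5.49 and 11.5, and PRKCQ 0.804 and 1.13. The order was therefore led in both libraries by LAT, ZAP70 and PLCG1; ZAP70 was above PLCG1 in replicate 1 and below it in replicate 2, so these neighbours are not ordered. The groups include genes that T cells do not use, and the part of RNA level in these ranks was not tested.

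The members' paralogs are related genes that do the same work in other cells or beside them. Of 23 listed, 22 could be placed; LAT2 could not. All but FGR had a sense peak in both replicates, beside 47.6% of all protein-coding genes. Overlapping pairs were found on 5 of 22 (22.7%), near the 16.0% of all genes: VAV3, PTPRA, PRKCA, PRKCB and PRKCH. Among the Src-family relatives of LCK and FYN, SRC had 2 and 1 peaks, YES1 8 and 9, LYN 1 and 2, FGR 0 and 2, BLK 1 and 1, and FRK 4 and 2, and none of these had an overlapping pair. SYK, the relative of ZAP70 that serves the B-cell receptor, had 4 and 3 peaks and none overlapped, which is 0.413 and 0.309 peaks per 10 kb. BLNK and CLNK, the relatives of LCP2, had 1 and 2 and 6 and 4 peaks. PLCG2, the phospholipase of B cells, had 6 and 1 peaks.

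VAV2 had 7 and 13 peaks with no pair, and VAV3 had 39 and 29 on a gene of 394020 nt with 4 pairs. Among the receptor phosphatases, PTPRA had 14 and 10 peaks, PTPRE 3 and 6, and PTPRJ 8 and 5. In the protein kinase C family, PRKCA had 162 and 218 peaks, or 3.19 and 4.29 per 10 kb, with a highest pair of 10.5 tags by its lower height, more than PRKCQ on each of these. Only 14 and 14 of the PRKCA peaks were mainly exonic, and the rest were mainly intronic. Mainly CDS were 9 and 7 peaks of PRKCA, beside 3 and 6 of PRKCQ. PRKCB had 20 and 17 peaks, PRKCH 22 and 32, PRKCE 8 and 3, PRKCI 4 and 3, PRKCD 1 and 3, and PRKCZ 1 and 1. Apart from PRKCA, each placed paralog had fewer peaks per 10 kb than its member in both replicates, with the exceptions of YES1 and FGR beside FYN in replicate 2. By number, PRKCH also had more peaks than PRKCQ, with 15 and 21, in both replicates. In replicate 1 alone, so did PRKCB beside PRKCQ, VAV3 beside VAV1 (24) and PTPRA beside PTPRC (12). The other paralogs had fewer peaks than their members. The rates divide by the whole gene length, introns included, and the part of length in them was not tested. These are descriptions of 2 libraries, with no test.

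In the wider pathway, 72 genes of the steps around the members were listed and 69 could be placed; ORAI1, SLA and SLA2 could not. A sense peak in both replicates was found on 59 of the 69 (85.5%), beside the 47.6% of all protein-coding genes, and an overlapping pair on 37 (53.6%), beside the 16.0%. Peaks reaching 10 tags in each replicate were found on 7 of the 69, beside the 4.01% of all genes. By branch, an overlapping pair was found on 11 of 12 genes of calcium and diacylglycerol signalling, 8 of 11 of the cytoskeleton, 6 of 12 of the RAS and MAP kinase branch, 4 of 9 regulators of the coreceptor kinases, 5 of 13 adaptors, 3 of 9 genes of the NF-kB branch and 0 of 3 Tec kinases. All 3 Tec kinases had a peak in each replicate, without overlap. SH2D1A, SIT1 and DOK1, all adaptors, had no sense peak in either replicate. Their lengths were 26598, 1637 and 8447 nt, and the part of gene length was not tested.

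The highest pair of this list, by its lower height, was 14 tags on RAC2, a GTPase of blood cells, which had 9 and 12 peaks. DGKZ, a kinase that removes diacylglycerol, followed at 10.5 tags with 42 and 52 peaks and 17 overlapping pairs, as many as ZAP70. ITPR2, a calcium channel of the endoplasmic reticulum, had 17 and 38 peaks and a highest pair of 10 tags. MAP3K7, a kinase of the NF-kB branch, had 3 and 3 peaks with a pair of 9 tags in each library. WAS, which drives actin assembly, had 8 and 12 peaks and 6 pairs, the highest with 9 tags. THEMIS, an adaptor of developing T cells, had 14 and 14 peaks and a pair of 8.5 tags. By the lower height, no gene of the list had a pair above the 19 tags of the ZAP70 pair.

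ZAP70 had the most overlapping peaks of the members. The 3 protein-coding genes most like it in 5 numbers, the peaks and the CDS peaks of each replicate and the gene's length, all on log2 scales, were SLC7A5, ATP2A3 and CTBP1. SLC7A5, an amino acid transporter, lay at a distance of 0.555 with 34 and 40 peaks on 39485 nt. ATP2A3, a calcium pump, lay at 0.618 with 38 and 48 peaks on 40565 nt. CTBP1, a corepressor of transcription, lay at 0.682 with 29 and 47 peaks on 38911 nt.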

How the data were processed

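The authors sequenced read pairs of 150 bp, aligned them with TopHat2 to GRCh38 (per the labels), kept uniquely mapped reads, called peaks in each library with ABLIRC by simulation within each gene, and removed peaks that met input peaks. The deposited tags column is a signal that is not normalised. The deposited p-values served as a filter alone. Region shares and identifiers are the authors' own. Read as half-open intervals, positions matched the 5′ UTR share at RefSeq starts in 56 of 69 peaks tested. The members and the gene lists were chosen with earlier results of these data known. All 9 members are named, with the highest peak and highest overlapping pair of each, all paralogs of the list but 1 that is not reported here, the 6 genes of the wider list with the highest pair and its genes without a peak, and the 3 nearest genes.

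The main region was the one with the largest share, and the first listed where shares were equal. Overlap needed at least 1 bp on the same strand. Both lists use the same grid of 50 nt, so equal positions mean the same grid step and not agreement to the base. Other genes were counted by position in RefSeq intervals (GRCh38.p14) on their strand. The strand came from the promoter table for 15842 genes, and from the identifiers of the peaks for 2323, a rule that gave the known strand for 9964 of 10157 genes; 1464 genes held no peak, and 404 were left out. Overlap and counting were tested on simulated data. Python 3.11.15, numpy 2.4.6, pandas 2.3.3 and scipy 1.17.1 were used. The alternatives were minimum heights of 5 and 10 tags, a p value under 0.001, peaks without an opposite-strand peak, exonic peaks, assignment by position, an overlap of 50% of the length, the other direction, and each replicate left out.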

Additional observations from a re-analysis of the deposited data

Results flagged for a closer look

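Peaks on the antisense strand were left out of all counts above, and some were listed under the members' identifiers: 26 in replicate 1 and 13 in replicate 2, on 7 members in each. Input peaks were not analysed here. The antisense peaks were 13.9% and 5.88% of the sense and antisense peaks under these identifiers, beside 28.1% and 23.0% over all genes. Their heights were 4 to 5 tags in replicate 1 and 5 to 7 in replicate 2, near the lowest the lists hold. FYN held 10 and 3 of them and PRKCQ 7 and 1. No antisense peak of a member overlapped an antisense peak of the other replicate, and 1 in each replicate faced a sense peak at the same position. The share of such overlaps over all antisense peaks is not given here, so the lack of overlap has no background beside it.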

How the results depend on the processing

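Of the members, 8 had a sense peak in both replicates. With replicate 1 or replicate 2 left out the count was again 8, but this is no check. Leaving out a list loosens the rule, so the count could not fall. It could not rise either, as LAT had no peak under its identifier in either list. At least 10 tags left 6 members, without FYN and PRKCQ, a p value under 0.001 left 7, without PRKCQ, and assignment by position gave 9, with LAT. The number of peaks depended on the minimum: the 161 peaks of replicate 1 became 91 at 5 tags, 17 at 10 tags and 55 at a p value under 0.001, and the 208 peaks of replicate 2 became 48 at 10 tags and 96 at a p value under 0.001. At 10 tags all 16 counts of the 8 members with peaks moved by over 1.5 times, to between 0 and 20 peaks. The exonic share of replicate 1 went from 49.1% to 61.5% at 5 tags, 70.6% at 10 tags and 65.5% under the p value, and that of replicate 2 from 50.5% to 66.7% at 10 tags and 66.7% under the p value. Overlap of replicate 1 by replicate 2, 41.0%, was 51.6% at 5 tags, 23.5% where both peaks needed 10 tags, 54.4% for exonic peaks and 32.2% in the other direction. Leaving out peaks with an opposite-strand peak, and assignment by position, kept every share inside the interval of its reported value. No paired analysis was possible because the 2 lists analysed here belong to 1 condition; the inputs, which carry the same replicate numbers, were not analysed here. The unknown depth limits any comparison of heights between the libraries.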

Other observations

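The chains of the receptor itself stand upstream of the members and were listed here as T-cell markers. CD3D had 5 and 4 peaks in replicates 1 and 2, with highest heights of 17 and 14 tags, and its 3 pairs included one with 10 tags as the lower height. CD3E had 6 and 9 peaks, with highest heights of 10 and 22 tags and 3 pairs. CD3G had 5 and 6 peaks, with highest heights of 5 and 16 tags, and none overlapped. CD247, the zeta chain on which ZAP70 docks, had 11 and 14 peaks of at most 6 and 7 tags, with 2 pairs. The costimulatory receptor CD28 had 0 and 3 peaks, and the adhesion receptor CD2 had 2 and 0.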
